A study of Mus musculus with 947 samples.

Results

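The miR-379 to miR-410 cluster is the distal run of microRNA (miRNA) hairpins of the imprinted Dlk1-Dio3 locus of the mouse. Its members were chosen by name, as 43 mature miRNA arms of these hairpins. All 43 were present among the 1076 miRNAs of the aging cohort, and 39 among the 795 miRNAs of the parabiosis cohort, where mmu-miR-380-5p, mmu-miR-539-5p, mmu-miR-679-5p and mmu-miR-758-3p were not found. The members summed to a median of 14577.3 reads per 1000000 mapped reads (rpmm) in brain and 22.6 in marrow. Their levels fell with age in limb muscle, skin, subcutaneous fat and gonadal fat, and were higher in males than in females in skin.

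The study sequenced small RNA of mouse tissues. The aging cohort, Tabula Muris Senis (TMS), held 769 libraries of 16 tissues from C57BL/6JN males and virgin females of 10 ages from 1 to 27 months, with males only at 24 and 27 months and 1 to 6 libraries per tissue and age. The parabiosis cohort held 176 libraries of 6 tissues from 30 male mice joined by surgery for 5 weeks so that the partners shared a circulation. Isochronic young mice (IY) were 3 or 4.5 months old, isochronic aged mice (IA) and heterochronic aged mice (HA) were 19 months old, and heterochronic young mice (HY) were 4 months old. The HY mice were of a strain that no other group had, so strain and the HY state cannot be told apart. The IY, IA and HA mice were C57BL/6J or C57BL/6JN, and the study's sample list and its reporting form disagree on which mice were of which substrain. Both mice of each of the 4 IY pairs and 4 IA pairs were sampled, and such partners are not independent. The labels do not tie the aging libraries of 1 mouse together across tissues.

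Depth had a median of 20.1 M mapped reads (M, 1000000) in both cohorts, from 2.29 to 167 in aging and from 9.20 to 47.6 in parabiosis. At the median depth 1 read was worth 0.0497 rpmm. Marker miRNAs stood highest in their own tissue for brain and nerve, skeletal and heart muscle, liver, pancreas, skin, and gut and kidney. Still, 11 aging libraries and 3 parabiosis libraries correlated best with another tissue, among them a skin library of 21 months closest to liver and a subcutaneous fat library of 3 months closest to bone. In 12 of 51 brain libraries, which carry the title numbers 25 to 36, all miRNAs together took 16.01% to 33.64% of mapped reads, against 47.73% to 72.99% in the other 39. These are bulk tissues, in which fewer cells that express the cluster and less RNA per cell cannot be told apart.

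As background, miRNAs are short RNAs that pair with messenger RNAs mainly through the seed, bases 2 to 8 from the 5′ end, and reduce their translation and stability. The hairpins of this cluster are transcribed from the maternal chromosome together with the long noncoding RNAs Meg3, Rian and Mirg, and each hairpin can yield a mature arm from its 5′ side (5p) and from its 3′ side (3p). The cluster is known for its neuronal expression, for growth of dendrites and, in mice that lack it, for defects in metabolism after birth. mmu-miR-134-5p, for example, limits the size of dendritic spines.

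RefSeq places the cluster on the plus strand of GRCm38.p6 at chr12:109709060-109743795, with 29 hairpin genes over 34.7 kb. It gave a mature sequence for 40 of the 43 members, 17 5p and 26 3p arms being on the list and 12 hairpins having both. The 40 sequences carried 39 different seeds. The sequences below, 5′ to 3′ with the seed in capitals, are the pair that shares a seed, pairs whose seeds differ by 1 base, and the members that carry the results by tissue, age, sex and parabiosis.
mmu-miR-379-3p: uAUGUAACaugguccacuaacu
mmu-miR-411-3p: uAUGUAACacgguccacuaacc
mmu-miR-379-5p: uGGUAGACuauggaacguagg
mmu-miR-411-5p: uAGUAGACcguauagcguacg
mmu-miR-376a-3p: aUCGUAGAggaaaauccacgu
mmu-miR-376b-3p: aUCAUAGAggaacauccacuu
mmu-miR-300-3p: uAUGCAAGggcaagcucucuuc
mmu-miR-381-3p: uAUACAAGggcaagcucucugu
mmu-miR-376b-5p: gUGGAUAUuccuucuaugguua
mmu-miR-300-5p: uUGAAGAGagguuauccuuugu
mmu-miR-412-5p: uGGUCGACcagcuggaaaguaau
mmu-miR-541-5p: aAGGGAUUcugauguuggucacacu
mmu-miR-154-5p: uAGGUUAUccguguugccuucg
mmu-miR-369-5p: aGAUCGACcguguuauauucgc
Only mmu-miR-379-3p and mmu-miR-411-3p shared a seed. Counting from the 5′ end of the mature miRNA, the seed of mmu-miR-411-5p differed from that of mmu-miR-379-5p by G2A, that of mmu-miR-376b-3p from mmu-miR-376a-3p by G4A, and that of mmu-miR-381-3p from mmu-miR-300-3p by G4A. The miR-376 arms are known as sites of A-to-I editing, which these tables do not report. Because the authors mapped reads with 1 mismatch allowed, members with a near copy in the table are uncertain. mmu-miR-299a-3p and mmu-miR-299a-5p did not differ from their miR-299b copies over 18 and 21 shared bases, mmu-miR-376b-5p differed from mmu-miR-376c-5p by 1 base over 22, and mmu-miR-379-3p from mmu-miR-411-3p by 2 over 22.

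The first comparison was between tissues. Brain held far more of the cluster than any other tissue. The summed level of the 43 members ran from 4128.7 to 21496.3 rpmm over 51 brain libraries and made up a median of 2.53% of the rpmm of all miRNAs. Mesenteric fat (MAT) followed with a median of 1433.1 rpmm (220.8 to 2374.7, n = 47), so the median in brain was 10.2 times higher and the libraries of both tissues did not overlap. Gonadal fat (GAT), skin, subcutaneous fat (SCAT) and limb muscle came next, with medians of 930.1, 778.1, 552 and 357.2 rpmm. Heart, small intestine, lung, brown fat (BAT), pancreas and bone had medians from 284.9 down to 204.2 rpmm. Spleen, liver, kidney and marrow were lowest, at 79.6, 62, 59.3 and 22.6 rpmm. Apart from brain and MAT, the libraries of every pair of neighbours in this order overlapped.

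**Figure D1:**
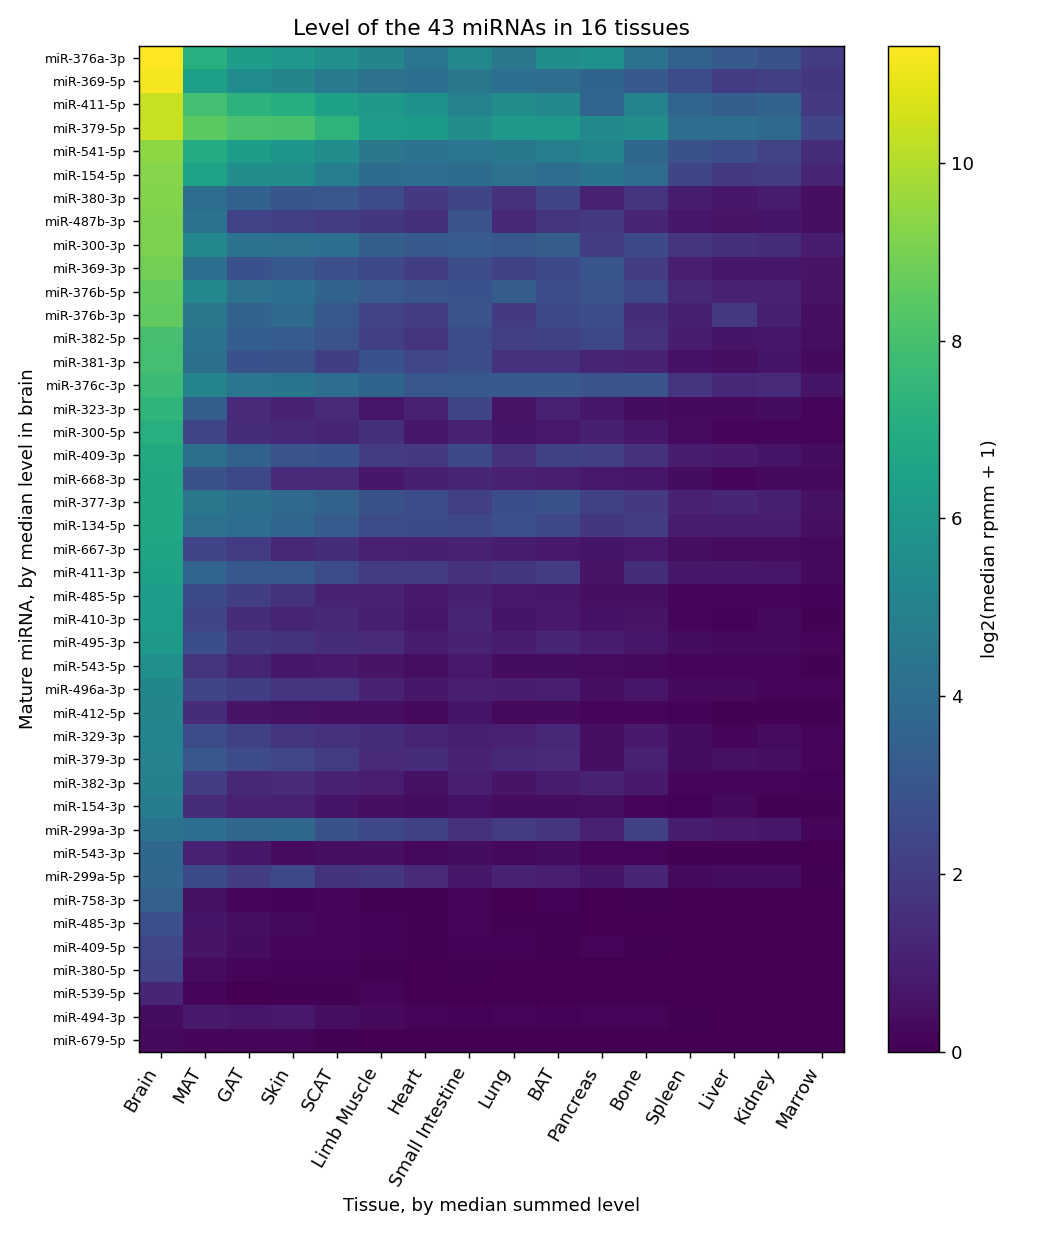
Median level of each of the 43 members (rows, by level in brain) in each of 16 tissues of the aging cohort (columns, by summed level), with colour as log2 of the median rpmm plus 1. The brain column is the brightest for nearly all rows, and MAT, GAT, skin and SCAT follow.

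Brain was led by mmu-miR-376a-3p, with a median of 2547.1 rpmm (1425.7 to 4606.1, n = 51), or 20.2% of the mean summed level. mmu-miR-369-5p had a median of 2298.0 rpmm in brain (250.6 to 3726.1), and mmu-miR-411-5p one of 1323.5 (255 to 1907.2). mmu-miR-379-5p followed at 1317.0 rpmm (250.8 to 4664.1) and mmu-miR-541-5p at 664.3 (64.42 to 1288.7). At the other end mmu-miR-539-5p had a median of 1.348 rpmm, mmu-miR-494-3p one of 0.290 and mmu-miR-679-5p one of 0.227, the last pair being worth under 10 reads at the median depth. Adapter ligation favours some miRNAs over others, so the order of members within a tissue is less certain than the order of tissues for 1 member. Outside brain the leading member was mmu-miR-379-5p in 14 tissues and mmu-miR-376a-3p in pancreas.

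Of the 43 members, 42 passed the filter of at least 1 rpmm in 10% of the libraries of at least 1 tissue, and mmu-miR-679-5p passed in none. In brain 41 passed, in limb muscle 39, in GAT, MAT and skin 37 each, in SCAT 35 and in marrow 12. By limma over all aging libraries, 40 members were higher in brain than in each of the 15 other tissues, at an adjusted p under 0.05 in every contrast, against 28.4% of the 885 miRNAs tested. The exceptions were mmu-miR-299a-3p, higher in brain than in 12 of 15 tissues, and mmu-miR-494-3p, higher than in 6 of 15. mmu-miR-299a-3p had medians of 18.9 rpmm in brain, 16.4 in MAT, 12.6 in skin and 12.2 in GAT, with overlapping libraries. mmu-miR-494-3p had its highest median in MAT, at 0.768 rpmm, against 0.290 in brain.

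Members moved together from library to library. The median Pearson r over pairs of members was 0.892 in skin, where it was 0.278 over all miRNAs, 0.788 in SCAT (0.374) and 0.768 in limb muscle (0.142). With age means removed it was 0.835 in skin and 0.432 in limb muscle. Levels within a tissue share library depth and age, so these values are descriptions. Over the 16 tissue means, the miRNAs outside the locus most like the summed members were mmu-miR-218-2-3p (Pearson r 0.846), mmu-miR-125b-1-3p (0.822), mmu-miR-135b-5p (0.808), mmu-miR-384-3p (0.782), mmu-miR-138-5p (0.758), mmu-miR-100-3p (0.757), mmu-miR-344-3p (0.752) and mmu-miR-3099-3p (0.751), of 791 candidates.

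The next comparison followed each member over the lifespan. Levels fell with age for most members in limb muscle, skin, SCAT and GAT, and for few or none by this measure in the other 12 tissues, the third white fat depot MAT included. A fall was counted where Spearman rho was below -0.5, with a permutation p adjusted over all miRNAs of the tissue. In limb muscle 38 of 39 members fell, with a median rho of -0.70 against -0.14 over all 546 miRNAs, of which 16.5% fell. In skin 35 of 37 members fell (median rho -0.58, -0.01 over all miRNAs, 13.2% falling), in SCAT 27 of 35 (-0.58, -0.10 over all, 11.2%) and in GAT 25 of 37 (-0.55, 0.12 over all, 6.91%). Heart had 4 of 30 members falling, where 2.44% of miRNAs fell, bone 2 of 30 (1.5%) and pancreas 1 of 32 (1.27%). MAT had none of 37. Brain had none of 41, with a median rho of -0.13, and none of the 659 miRNAs tested in brain fell (0%). No member had a rho above 0.5 in any tissue. Over all tissues 132 of 486 pairs of a member and a tissue fell, against 4.31% of 8849 pairs over all miRNAs. The count outside the 4 tissues depends on scaling. Scaled to miRNA reads, 21 of 30 members fell in bone (50 of 533 miRNAs). The count was 6 each in heart (15 of 533 miRNAs), liver (11 of 501) and MAT (16 of 591). By median-ratio scaling 10 fell in bone (25 miRNAs), 7 in heart (18), 6 in liver (12) and 8 in MAT (24). In bone the share of mapped reads taken by miRNAs had a rho with age of 0.39, and the members' share of miRNA rpmm one of -0.78. At the reported scaling an adjusted p under 0.05, with no limit on rho, was met by 13 falling members in heart, 10 each in bone and MAT and 7 in liver. This last count was made for members only and has no share over all miRNAs.

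**Figure D2:**
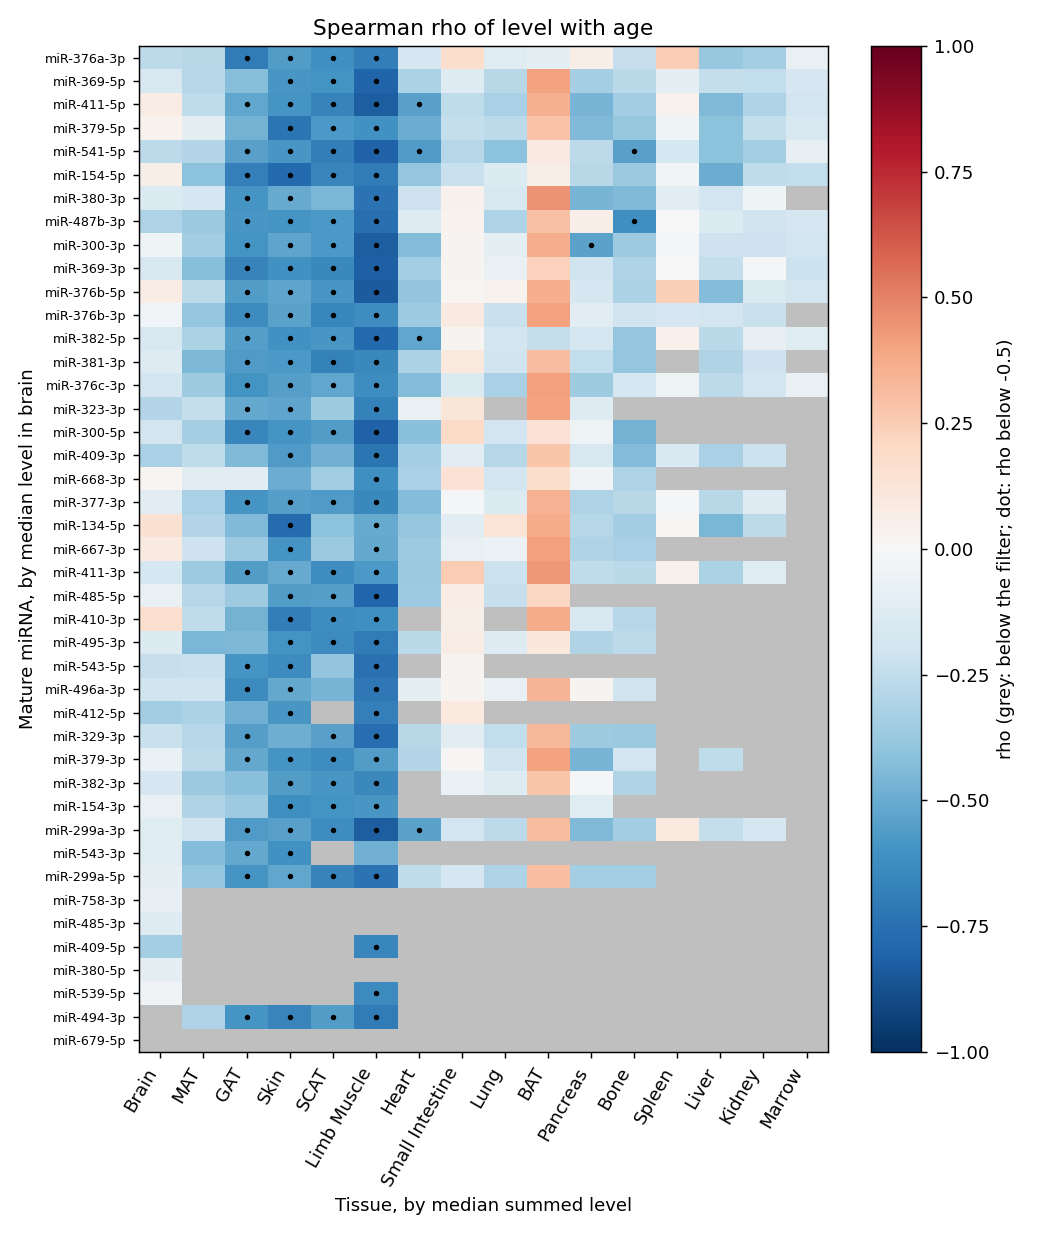
Spearman rho of level with age for each member (rows) in each tissue (columns), with blue for falling, red for rising, grey for members below the filter and a dot where rho is below -0.5. The dots fill the columns of limb muscle, skin, SCAT and GAT, while brain has none and BAT is mostly pale red.

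Of the 42 tested members, 39 fell in at least 1 tissue. The 3 others, mmu-miR-380-5p, mmu-miR-485-3p and mmu-miR-758-3p, passed the filter in brain only. The overlap of the 4 tissues held 19 members, among them mmu-miR-376a-3p, both arms of miR-376b, miR-300, miR-299a and miR-411, and mmu-miR-541-5p. All 27 members that fell in SCAT also fell in limb muscle (100% of the SCAT list, 71.05% of the limb muscle list), and 24 of the 25 that fell in GAT did (96% and 63.16%). The members that missed the threshold were few: mmu-miR-543-3p in limb muscle (rho -0.48), and mmu-miR-668-3p and mmu-miR-329-3p in skin (both -0.49).

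In limb muscle the fall was early and steep. The summed level was 1465.8, 3807.9, 4271.3 and 4444.3 rpmm in the 4 libraries of 1 month. It ranged from 1146.5 to 1959.2 with a median of 1548.1 in 6 libraries of 3 months, and had a median of 389 in 6 libraries of 6 months. At 21 months it was 177.5, 210.6, 225.6, 256.7 and 287.5 rpmm, and at 27 months 176.9, 216.3 and 278.9. No library of 21 or 27 months reached the lowest library of 1 or 3 months, and the median fell 18.7-fold from 1 to 27 months and 6.86-fold from 3 to 21 months. Among 6 libraries of 9 months, the highest sums, 2557.1 and 1341.7, came from the shallowest libraries, of 2.93 and 2.68 M reads, and the other 4 gave 285.5 to 603.2. The sum had a rho with age of -0.85, -0.88 without libraries under 5 M reads, and -0.73 from 6 months on.

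**Figure D3:**
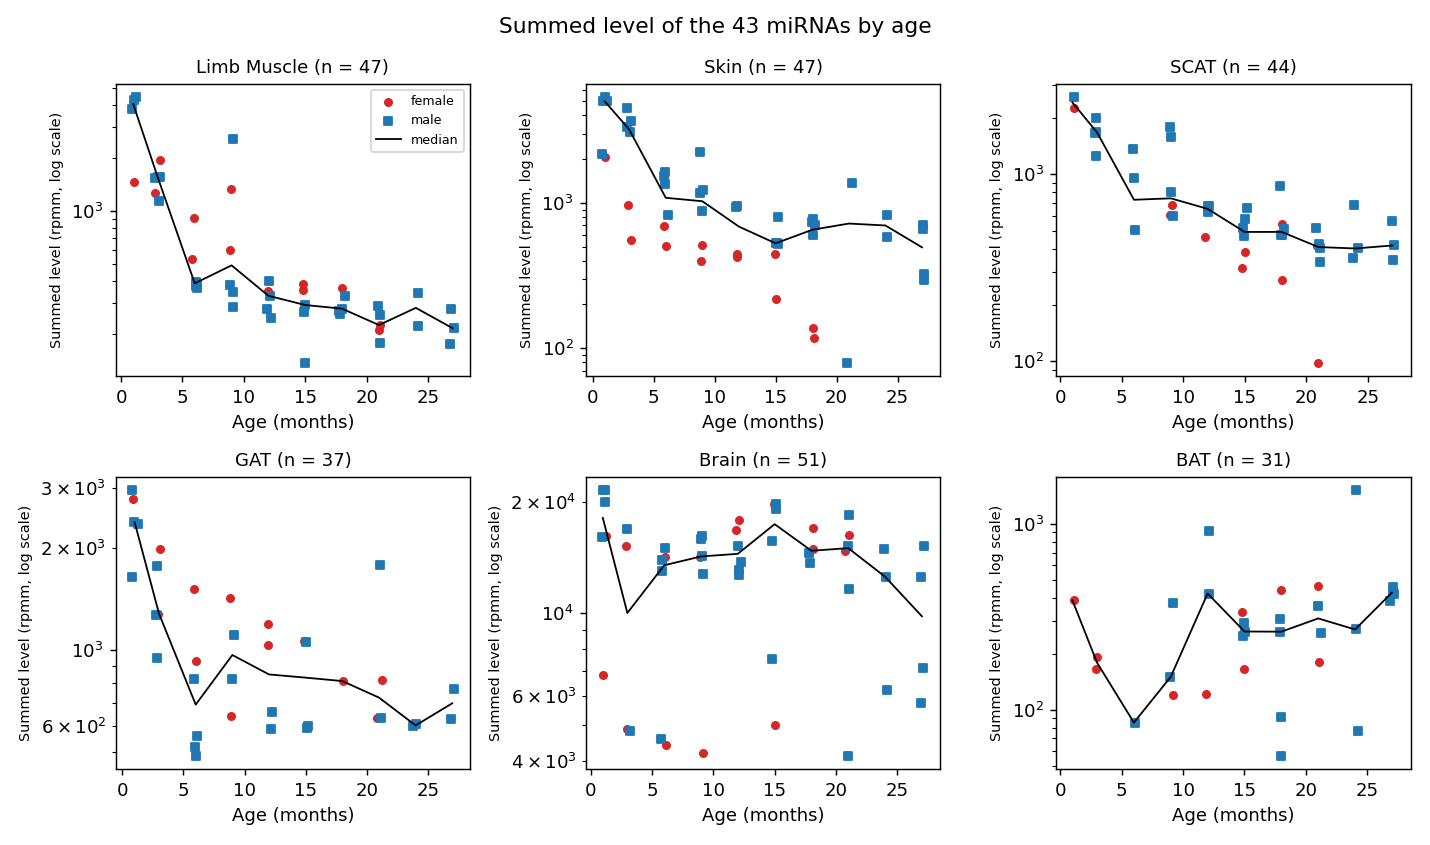
Summed level of the 43 members in rpmm (log scale) against age in months for 6 tissues, with 1 point per library (red circles female, blue squares male) and a line through the medians. Limb muscle, skin, SCAT and GAT drop mainly between 1 and 6 months, and the low brain libraries form a separate band. The BAT median also drops early, from 387.4 rpmm at 1 month to 85.15 at 6 months, but is 422.2 at 12 months and 427 at 27 months.

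The steepest member in limb muscle was mmu-miR-376b-5p, the arm opposite to mmu-miR-376b-3p. Its level was 63.71, 66.57, 130.4 and 164.6 rpmm at 1 month and 57.95 to 90.16 with a median of 83.26 at 3 months. At 21 months it was 0.52, 6.745, 6.83, 8.502 and 8.63 rpmm. The groups did not overlap, and rho with age was -0.83 (permutation p 1e-05, which no set of 100000 shuffles can undercut, adjusted p 8.53e-05, Pearson r of log2 values -0.80, and -0.80 without the 2 libraries farthest in age, n = 47). mmu-miR-412-5p had a median of 25.56 rpmm at 1 month and 7.575 at 3 months (5.495 to 11.74). At 21 months its 5 libraries held 0, 0.06078, 0.1488, 0.2807 and 0.2882 rpmm, all below every library of 3 months and near or below the value of a few reads. mmu-miR-300-5p went from a median of 23.66 rpmm at 3 months (16.84 to 36.33) to 1.091 at 21 months (0.52 to 2.066).

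By limma, 36 of 39 members were lower at 21 than at 3 months in limb muscle, where 17.4% of all miRNAs were lower. In 35 of 39, every library of 21 months lay below every library of 3 months, a rule met by 16.7% of all miRNAs. The median log2 fold change of members was -1.99, against -0.42 over all miRNAs. The smallest adjusted p-values belonged to mmu-miR-412-5p (log2 fold change -3.01 ± 0.23 SE, adjusted p 3.68e-14), mmu-miR-543-5p (-2.46 ± 0.22, adjusted p 2.39e-12) and mmu-miR-300-5p (-3.56 ± 0.40, adjusted p 1.91e-09). The change was largest for mmu-miR-376b-5p, at -3.69 ± 0.43. The members that did not pass were mmu-miR-376a-3p (-1.06 ± 0.70, adjusted p 0.355), mmu-miR-154-3p (-0.64, adjusted p 0.0953) and mmu-miR-543-3p (-0.47, adjusted p 0.229). mmu-miR-376a-3p was 49.24 to 93.42 rpmm at 3 months and 16.29, 17.75, 26.78, 34.21 and 160.7 at 21 months, so 1 old library exceeded all young ones. Between 1 and 3 months 9 of 39 members were lower in limb muscle (3.66% of all miRNAs), led by mmu-miR-485-5p, mmu-miR-409-3p and mmu-miR-412-5p. mmu-miR-485-5p went from 10.21, 18.28, 19.54 and 29.13 rpmm at 1 month to 2.984 to 7.115 at 3 months (log2 fold change -1.91 ± 0.36, adjusted p 0.000564). That count was 0 with edgeR on the recovered reads.

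Other miRNAs of limb muscle bear on these values. In limb muscle no marker list held a miRNA with a rho below -0.5, and no marker was at 0 in any group. The sum of the 3 fibroblast markers, miR-199a-3p, miR-199a-5p and miR-214-3p, had a rho with age of -0.47, with 3 to 21 month medians of 3335.8 and 1795.6 rpmm. The sum of the 7 brain and nerve markers had a rho of -0.27, and that of the 6 muscle markers 0.31. The share of mapped reads taken by miRNAs had a rho with age of 0.33 and depth one of 0.09. The part of these shifts in the fall was not tested. The members' share of miRNA rpmm fell alike, with a rho of -0.85. Within each of 7 plates of the authors' sample annotation rho of the sum with age was below 0 (-0.99 to -0.21). The annotation does not say which step the plates belong to.

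In skin the summed level went from a median of 5005.3 rpmm at 1 month (2075.9 to 5368.7, n = 5) to 3206.1 at 3 months (558.0 to 4512.3, n = 6), 1084.5 at 6 months and 494.4 at 27 months (294.9 to 709.5, n = 4), a 10.1-fold fall. mmu-miR-154-5p had the strongest trend of any member in skin. Its level was 134.2, 152.5, 246.7, 300.7 and 328.4 rpmm at 1 month and 16.44, 19.42, 33.76 and 37.22 at 27 months. The groups did not overlap (rho -0.78, permutation p 1e-05, adjusted p 0.000188, Pearson r -0.72, -0.70 without the 2 libraries farthest in age, n = 47). With both sexes together, the count in skin depended on the young libraries. Without the 1-month libraries 5 of 37 members fell, and 11 of 37 with plate means removed. From 6 months on rho of the sum was -0.40. In males only, 37 of 37 members fell (median rho -0.78, 0.09 over all miRNAs, 78 of 534 falling). Without the 24- and 27-month libraries, which are all male, 36 of 37 fell (101 of 534 miRNAs). By limma 2 members were lower at 3 than at 1 month in skin (3.31% of all miRNAs), mmu-miR-323-3p (-0.997 ± 0.289, adjusted p 0.0393) and mmu-miR-412-5p (-0.95 ± 0.28, adjusted p 0.0393). Skin had only 2 libraries at 21 months and was not compared with 3 months.

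In SCAT the summed level fell from 2246.0 and 2587.4 rpmm at 1 month and 1253.9, 1663.7, 1679.8 and 1999.4 at 3 months to a median of 408.1 at 21 months (98.39 to 515.1, n = 6). No library of 21 months reached those of 3 months. mmu-miR-541-5p led the trend, at 93.72, 104.8, 128.0 and 190.1 rpmm at 3 months and 12.23 to 40.74 with a median of 30.87 at 21 months (rho -0.69, permutation p 1e-05, adjusted p 0.000587, Pearson r -0.72, -0.66 without the 2 libraries farthest in age, n = 44). By limma 9 of 35 members were lower at 21 than at 3 months in SCAT (2.21% of all miRNAs), led by mmu-miR-541-5p (-2.17 ± 0.39, adjusted p 0.0011), mmu-miR-369-5p (-2.97 ± 0.56, adjusted p 0.0011) and mmu-miR-411-5p (-2.39 ± 0.49, adjusted p 0.00279). The 4 libraries of 3 months were all male, those of 21 months came from 4 males and 2 females, and the fit had no term for sex. Over 1 to 21 months the median log2 difference of members in SCAT, male minus female, was 0.52. The count in males only is given with the other alternatives. mmu-miR-369-5p was 50.79, 59.58, 69.04 and 1471.9 rpmm at 3 months and 5.595 to 25.52 at 21 months, so 1 young library stood far above the rest. Without the 3-month library closest to bone, 33 of 35 members were lower in SCAT, with a median log2 fold change of -1.82 in place of -1.15, and the median over all miRNAs then moved from 0.07 to -0.48. Leaving out another library of SCAT changed the 9 calls to 4 or 5 in 3 cases. With plate means removed 16 members fell in place of 27, and rho of the sum was below 0 within 6 of 7 plates.

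In GAT the summed level went from a median of 2372.8 rpmm at 1 month (1641.0 to 2947.6, n = 5) to 1277.4 at 3 months (944.8 to 1985.7, n = 5) and 724.7 at 21 months (631.6, 632.5, 817.0 and 1777.6). One library of 21 months lay among those of 3 months. mmu-miR-376a-3p was 107.5, 110.7, 132.2, 139.8 and 156.1 rpmm at 3 months and 32.75, 34.17, 45.53 and 49.43 at 21 months, without overlap (rho with age -0.70, permutation p 1e-05, adjusted p 0.000869, Pearson r -0.62, -0.63 without the 2 libraries farthest in age, n = 37). By limma 3 of 37 members were lower at 21 than at 3 months in GAT (0.493% of all miRNAs), mmu-miR-376a-3p (-1.66 ± 0.42, adjusted p 0.025), mmu-miR-369-3p (-1.71 ± 0.45, adjusted p 0.0277) and mmu-miR-494-3p (-0.89 ± 0.24, adjusted p 0.0277). This count is fragile, since it was 0 without 1 of 2 libraries and with plate in the fit. Without the 1-month libraries 4 of 37 members fell in GAT, and from 6 months on rho of the sum was -0.07.

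Elsewhere single members passed. mmu-miR-487b-3p in bone had a median of 3.657 rpmm at 1 month (2.359 to 8.948, n = 6) and 1.101 at 27 months (0.3944 to 1.836, n = 4), with rho -0.61 (permutation p 1e-05, adjusted p 0.000592). mmu-miR-541-5p in heart had a median of 29.77 rpmm at 3 months (18.77 to 46.92, n = 5) and 16.32 at 21 months (10.04 to 19.64, n = 6), with rho -0.57 (permutation p 2e-05, adjusted p 0.000888). mmu-miR-300-3p in pancreas was 5.716 to 7.373 rpmm at 1 month and 1.336 to 2.855 at 21 months, with rho -0.54 (permutation p 0.00017, adjusted p 0.00853). The groups of bone and pancreas did not overlap, while those of heart did. Between 1 and 3 months, 3 members were lower in pancreas (2.53% of all miRNAs), mmu-miR-299a-3p (-1.75 ± 0.36, adjusted p 0.0008), mmu-miR-411-5p and mmu-miR-411-3p, and mmu-miR-369-5p was lower in liver (-1.32 ± 0.37, adjusted p 0.0352, 2% of all miRNAs). From 3 to 21 months mmu-miR-134-5p was lower in liver (-1.12 ± 0.36, adjusted p 0.0398, 0.399% of all miRNAs), and mmu-miR-376a-3p was higher in small intestine (1.06 ± 0.25, adjusted p 0.00588, 12.5% of all miRNAs). mmu-miR-376a-3p in small intestine was 10.03 to 41.67 rpmm at 3 months and 33.26 to 135.6 at 21 months, with overlap.

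Brain had no member below the rho threshold over its 51 libraries at the reported scaling. The members' share of miRNA rpmm there still had a rho with age of -0.47. In males only, 2 of 41 members fell in brain, where 55 of 661 miRNAs fell. All 41 members had a rho below 0 there (median -0.36, -0.20 over all miRNAs). The summed level in brain had medians of 18092.5 rpmm at 1 month, 15000.3 at 21 months and 9825.9 at 27 months. These medians depend on how many of the 12 libraries with few miRNA reads fell at each age. Those 12 held summed levels of 4128.7 to 7538.0 rpmm and the other 39 of 11625.5 to 21496.3, without overlap, while the members' share of miRNA rpmm overlapped (1.98% to 3.43% and 2.13% to 3.54%). Within the 39 libraries rho of the sum with age was -0.27 and 3 of 41 members fell. Within the 12 libraries it was 0.24, no member fell and 4 had a rho above 0.5. Counts within these sets were made for members only and have no share over all miRNAs.

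Whether the slope with age differed between tissues was tested directly, by limma on log2 values with a slope per tissue against the mean slope of the other tissues. That mean included tissues where a member missed the filter and could lie near 0. The fit used a spread common to all tissues and treated all libraries as independent. Its p-values therefore do not measure the spread within a single tissue. Limb muscle had a steeper fall than the mean of the other tissues for 37 of 39 members (28.8% of all miRNAs were lower), all but mmu-miR-134-5p and mmu-miR-379-3p. mmu-miR-300-5p, with a slope of -0.17 ± 0.01 log2 per month in limb muscle, differed by -0.153 ± 0.010 (adjusted p 1.53e-41). Skin was lower for 36 of 37 members (15.6% of all miRNAs), with the smallest adjusted p for mmu-miR-494-3p (-0.0473 ± 0.0053, adjusted p 2.25e-15). SCAT was lower for 22 of 35 (16.4%), again with mmu-miR-494-3p first (-0.0363 ± 0.0058, adjusted p 2.33e-07). The median of mmu-miR-494-3p was under 1 rpmm in every tissue, where the added 1 rpmm compresses both change and spread. GAT was lower for 2 of 37 (1.97%). Higher slopes than elsewhere were found in BAT for 30 of 32 members, where 56.7% of all miRNAs were higher, and in spleen for 8 of 19 (5.47%). In BAT, mmu-miR-411-5p differed by 0.138 ± 0.021 (adjusted p 5.4e-09). The share of reads in miRNAs rose with age in BAT (rho 0.54), and scaled to miRNA reads the count of members in BAT was 19. Over all miRNAs the BAT count then went from 298 to 154. That scaling moved other tissues too, here with the count over all miRNAs in brackets. It gave 13 members lower in GAT (35). It gave 17 higher in spleen (57), 16 in small intestine (32), 11 in lung (45), 9 in pancreas (50) and 6 in brain (28). Limb muscle had 39 lower (264), skin 36 (93) and SCAT 23 (97). In limb muscle the count over all miRNAs was 157 at the reported scaling. Brain had 2 members lower (3.95%), mmu-miR-412-5p and mmu-miR-409-5p, and 1 higher (2.12%), mmu-miR-154-5p. Pancreas (mmu-miR-376a-3p, 2.95%) and small intestine (mmu-miR-300-5p, 0.369%) had 1 higher each.

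Males and females of 1 to 21 months were compared by limma, with age as a term. In skin every one of the 37 members tested was higher in males, while the median over all miRNAs was slightly lower in males. The summed level in skin was 116.8 to 2075.9 rpmm with a median of 443.9 in 13 females and 79.39 to 5368.7 with a median of 1197.4 in 28 males. At every age from 1 to 18 months the highest female lay below the lowest male. At 3 months the females had 558.0 and 970.4 rpmm and the males 3086.8, 3325.4, 3684.9 and 4512.3, and at 18 months the females had 116.8 and 136.7 and the males 601.2, 704.4, 744.6 and 778.1. The male of 79.39 rpmm is the 21-month library closest to liver. The median log2 difference, male minus female, was 1.27 for members and -0.11 for all miRNAs, 16% of which were higher in males. mmu-miR-376b-3p differed most, with 1.215 to 25.93 rpmm and a median of 4.097 in females and 5.494 to 114.5 with a median of 22.86 in males (2.31 ± 0.22, adjusted p 1.21e-10). mmu-miR-376a-3p (1.77 ± 0.22, adjusted p 6.68e-08) and mmu-miR-411-3p (1.78 ± 0.23, adjusted p 1.74e-07) followed, and mmu-miR-543-3p differed least (0.27 ± 0.10, adjusted p 0.0333). All 37 also passed with edgeR and without the library closest to liver.

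**Figure D4:**
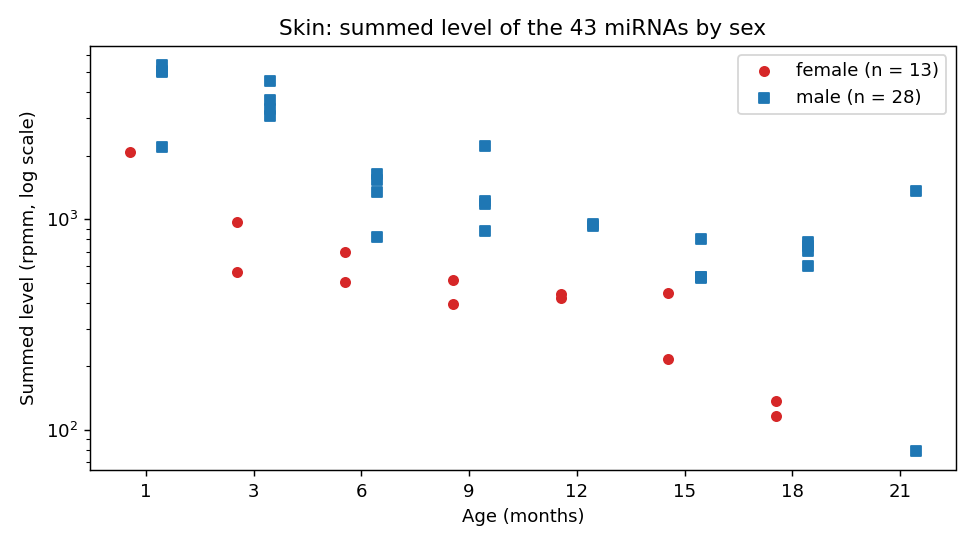
Summed level of the 43 members in skin in rpmm (log scale) against age in months, with 1 point per library (red circles 13 females, blue squares 28 males). At each age from 1 to 18 months all females lie below all males, and both sexes fall with age.

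Beside this difference, 2 of the 3 fibroblast markers of skin were higher in males, with a summed range of 2534.1 to 10188.7 rpmm (median 7265.7) in females and 789.3 to 19610.0 (median 10016.2) in males. None of the 7 brain and nerve markers differed between the sexes in skin, their sum being 184.2 to 364.9 rpmm in females and 169.3 to 583.6 in males. The skin markers miR-203-3p and miR-205-5p did not pass, and 2 of 5 blood markers, 1 of 3 vessel markers and 1 of 3 pancreas markers were lower in males. No marker was at 0 in either sex. Their part in the difference was not tested.

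Other tissues differed by sex in few members. In SCAT 5 of 35 were higher in males (7.33% of all miRNAs), led by mmu-miR-496a-3p (0.79 ± 0.18, adjusted p 0.00185), mmu-miR-411-5p (0.96 ± 0.24, adjusted p 0.00584) and mmu-miR-410-3p (0.52 ± 0.14, adjusted p 0.0118). The count was 13 once libraries that resemble another tissue were left out, where the count over all miRNAs also rose, from 43 to 143 of 587. Skin markers moved with sex in SCAT, their sum being 867.1 to 3664.4 rpmm (median 1857.7) in 11 females and 22.33 to 1978.5 (median 329.1) in 27 males, with 1 of the 2 lower in males and neither at 0. In SCAT 1 of 7 brain and nerve markers and 1 of 3 vessel markers were higher in males, none of 3 fibroblast markers was, and the part of these markers was not tested. In lung 3 of 30 were higher in males (1.18%), mmu-miR-379-3p (0.44 ± 0.10, adjusted p 0.018), mmu-miR-411-3p (0.50 ± 0.13, adjusted p 0.047) and mmu-miR-380-3p (0.42 ± 0.12, adjusted p 0.0492), and none with edgeR. The shared seed of mmu-miR-379-3p and mmu-miR-411-3p and their 2 mismatches make these not fully separate measurements. In GAT 5 of 37 were lower in males (5.43%), led by mmu-miR-154-5p (-0.75 ± 0.18, adjusted p 0.00491), mmu-miR-668-3p (-0.89 ± 0.23, adjusted p 0.0108) and mmu-miR-667-3p (-0.71 ± 0.20, adjusted p 0.0229). mmu-miR-154-5p in GAT had a median of 64.89 rpmm in 13 females (30.08 to 226.4) and 39.85 in 20 males (24.40 to 122.2), with overlap. In limb muscle mmu-miR-381-3p was lower in males (-1.08 ± 0.30, adjusted p 0.0229, 0.733% of all miRNAs).

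The parabiosis cohort repeats the comparison of old and young mice and adds the effect of a partner of the other age. Several contrasts share the IA or IY mice, so each is given by its own values. In limb muscle the summed level of the 39 members was 285.3 to 681.8 rpmm with a median of 491.2 in 8 IY mice and 149.2 to 202.2 with a median of 163.2 in 8 IA mice. It was 350.6 to 462.1 with a median of 424.9 in 7 HY mice and 150.4, 152.7, 162.9, 190.1, 251.0, 264.3 and 420.9 in 7 HA mice. IY and IA did not overlap, with medians 3.01-fold apart. HY and HA overlapped only through the highest HA mouse, with medians 2.24-fold apart.

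**Figure D5:**
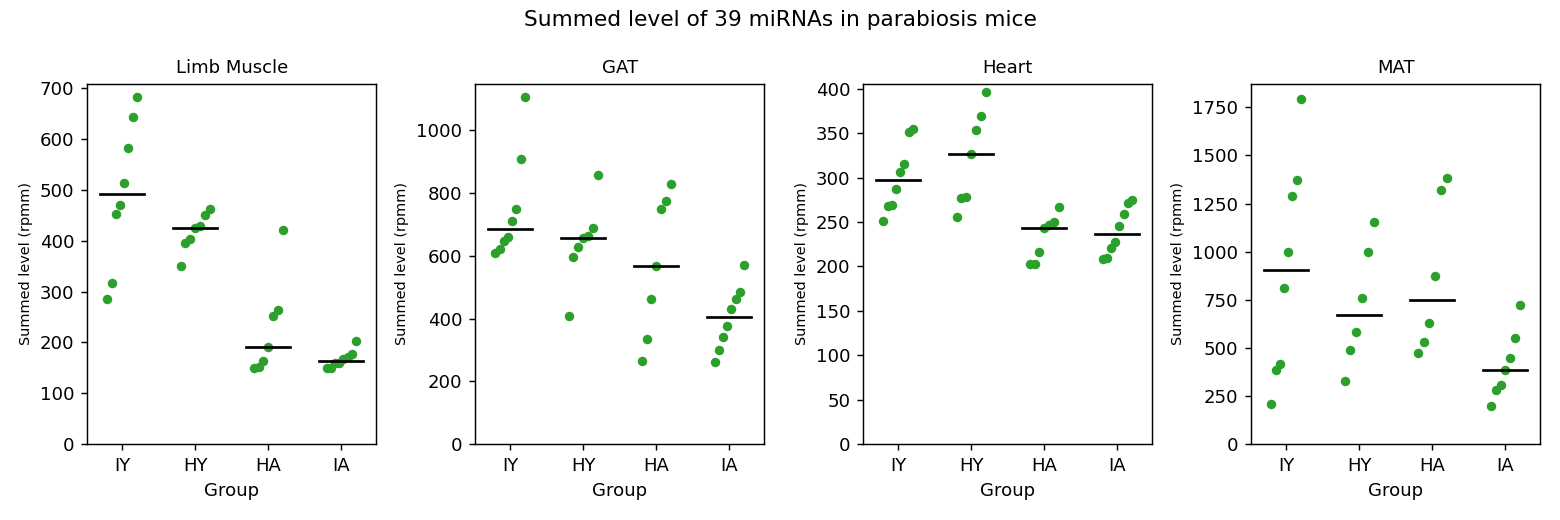
Summed level of the 39 members in rpmm in limb muscle, GAT, heart and MAT for the groups IY, HY, HA and IA, with 1 point per mouse and a bar at the median. In limb muscle the aged groups lie below the young groups except for 1 HA mouse at 420.9 rpmm.

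In limb muscle 33 of 34 members were lower in IA than in IY (12.7% of all miRNAs), with a median log2 fold change of -0.97 against -0.11 over all miRNAs, and only mmu-miR-668-3p did not pass. In 22 of the 34 every IA mouse lay below every IY mouse (7.68% of all miRNAs). mmu-miR-300-5p was 2.676 to 8.577 rpmm with a median of 5.884 in IY and 0.4186 to 0.7648 with a median of 0.6438 in IA (-1.98 ± 0.16, adjusted p 2.06e-11). mmu-miR-376b-5p was 12.46 to 32.50 rpmm with a median of 26.60 in IY and 3.648 to 6.466 with a median of 4.689 in IA (-2.06 ± 0.17, adjusted p 2.87e-11). mmu-miR-329-3p followed at -1.47 ± 0.15 (adjusted p 1.16e-09). With partners of a pair averaged, 26 of 34 members passed in limb muscle.

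HA compared with HY in limb muscle gave 22 of 34 members lower (9.29% of all miRNAs), with a median of -0.74 against 0.00 over all miRNAs. In 8 of the 34 every HA mouse lay below every HY mouse (3.84% of all miRNAs). mmu-miR-376b-5p was 17.60 to 24.06 rpmm with a median of 22.11 in HY and 4.233 to 8.362 with a median of 6.130 in HA (-1.67 ± 0.19, adjusted p 3.29e-08). mmu-miR-300-5p was 3.275 to 5.517 rpmm in HY and 0.6574 to 2.149 in HA (-1.54 ± 0.17, adjusted p 3.29e-08), and mmu-miR-376c-3p differed by -1.55 ± 0.22 (adjusted p 1.94e-06). No member passed in limb muscle for HA against IA, where 5 of 34 had a lower mean log2 level in HA, or for HY against IY. In HY against IY, limma gave 2 members at an unadjusted p under 0.05 in limb muscle and edgeR 2, and in HA against IA limma gave 3 and edgeR 13. The fibroblast sum in limb muscle was 2800.7 to 4546.5 rpmm in IY and 2060.5 to 3408.0 in IA, with none of its 3 markers passing, and its part was not tested.

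In GAT 24 of 35 members were lower in IA than in IY (5.64% of all miRNAs), with a median of -0.77 against 0.03 over all miRNAs. mmu-miR-485-5p was 1.716 to 3.617 rpmm in IY and 0.3483 to 1.538 in IA (-0.87 ± 0.16, adjusted p 0.00182), and mmu-miR-299a-5p was 2.205 to 5.169 in IY and 0.8794 to 2.050 in IA (-0.97 ± 0.18, adjusted p 0.00182). Neither member overlapped between the groups, which held for 9 of 35 members (2.09% of all miRNAs). With partners of a pair averaged none of the 35 passed, and 25 had an unadjusted p under 0.05. HA against HY gave no call in GAT by limma or edgeR, with 2 and 1 members lower at an unadjusted p under 0.05. HA was higher than IA for 3 of 35 members in GAT (3.22%), mmu-miR-299a-5p (0.81 ± 0.19, adjusted p 0.0309), mmu-miR-299a-3p (0.80 ± 0.21, adjusted p 0.0363) and mmu-miR-494-3p (0.43 ± 0.12, adjusted p 0.0476). mmu-miR-299a-5p was 1.325, 2.041, 2.087, 3.517, 4.022, 4.705 and 5.227 rpmm in HA and 0.8794 to 2.050 in IA, so the groups overlapped. With partners averaged none passed. Beside these values, the fibroblast markers in GAT summed to 3375.5 to 10591.2 rpmm (median 7083.2) in HA and 2717.5 to 6207.5 (median 4205.0) in IA. The blood markers had medians of 6087.1 and 3690.9 rpmm, and the vessel markers 28994.1 and 39488.2, with none of these 3 lists holding a marker that passed. In GAT 1 of 5 muscle markers tested and 1 of 3 adipose markers were lower in HA, no marker was at 0, and their part was not tested.

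In heart 7 of 32 members were lower in IA than in IY (8.91% of all miRNAs) and 18 of 32 in HA than in HY (8.53%). For IA against IY the lead members were mmu-miR-541-5p (-0.88 ± 0.17, adjusted p 0.0013), mmu-miR-376c-3p (-0.67 ± 0.18, adjusted p 0.013) and mmu-miR-154-5p (-0.53 ± 0.15, adjusted p 0.0188). mmu-miR-541-5p was 15.65 to 27.48 rpmm with a median of 21.26 in IY and 6.942 to 15.78 with a median of 12.07 in IA, barely overlapping. With partners averaged none of the 32 passed. For HA against HY the lead members were mmu-miR-411-3p (-0.82 ± 0.17, adjusted p 0.00243), mmu-miR-376a-3p (-0.76 ± 0.17, adjusted p 0.00315) and mmu-miR-329-3p (-0.70 ± 0.16, adjusted p 0.00315). mmu-miR-411-3p was 3.427 to 7.245 rpmm in HY and 1.543 to 3.866 in HA.

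MAT, liver and kidney gave no call in any contrast by limma or edgeR. In liver all 18 members had a higher mean log2 level in HA than in IA, with an unadjusted p under 0.05 in 12 by limma and 16 by edgeR. Unadjusted calls were not counted over all miRNAs, so these counts have no share to be read against. The median summed level in liver was 1.07 times higher in HA than in IA. The 2 other miRNAs of the locus tested in liver had a median log2 fold change of -0.12. In kidney none of 19 members reached an unadjusted p under 0.05 in either tool. In MAT all 37 members had a higher mean in HA than in IA, with log2 fold changes of 0.14 to 1.36 and a median of 1.03 against 0.38 over all miRNAs, and 29 had an unadjusted p under 0.05, but the smallest adjusted p was 0.189. By edgeR 30 had an unadjusted p under 0.05, and without the libraries closest to GAT 18 had by limma, with a median of 0.93. The share of mapped reads taken by miRNAs in MAT had a median of 31.63% in HA and 18.85% in IA, and scaled to miRNA reads the median of the members was 0.50 with 15 at an unadjusted p under 0.05 (0.57 and 18 by median-ratio scaling). IA against IY in MAT gave a lower mean log2 level in IA for 37 of 37 members, with a median of -0.88 against -0.39 over all miRNAs and 26 at an unadjusted p under 0.05, and scaled to miRNA reads a median of -0.36 with 10. The summed level in MAT was 476.1, 531.6, 627.8, 875.6, 1317.8 and 1385.3 rpmm in HA and 200.4, 283.5, 306.4, 383.9, 448.4, 552.8 and 723.9 in IA, with overlap. Of the 3 parabiosis libraries that correlated best with another tissue, all were MAT libraries closest to GAT.

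The balance of 5p and 3p arms is a ratio within a library. Of the hairpins of the cluster with both arms at a mean of at least 10 rpmm, 1 of 2 in limb muscle and 1 of 3 in skin changed their balance with age. None of the 9 tested in brain, 3 in MAT, 1 in GAT and 1 in SCAT passed. In limb muscle the log2 ratio of mmu-miR-300-5p to mmu-miR-300-3p became smaller in older mice, with a rho of -0.50 over 47 libraries (permutation p 0.00042, adjusted p 0.0084), where 10% of hairpins changed. The mean levels there were 10.06 rpmm for the 5p and 17.69 for the 3p arm. In skin the ratio of mmu-miR-411-5p to mmu-miR-411-3p did so too, with a rho of -0.63 over 47 libraries (permutation p 1e-05, adjusted p 0.00049), where 6.12% of hairpins changed, with mean levels of 245.8 and 12.30 rpmm. The ratio for miR-411 had a rho of the other sign in brain (0.35, adjusted p 0.251) and MAT (0.29, adjusted p 0.769). The log2 values carry 1 added rpmm, which compresses the changes of the weaker arm. With 0.1 rpmm added, rho was -0.65 for miR-300 in limb muscle (adjusted p 0.0004) and -0.50 for miR-411 in skin (adjusted p 0.025). Neither hairpin was tested when both arms were required at 30 rpmm, since the weaker arms lie below it.

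The other miRNAs of the Dlk1-Dio3 locus, 37 in the file, were listed by name for comparison. In limb muscle 23 of 24 fell with age, in skin 23 of 24, in GAT 13 of 21, in SCAT 11 of 19 and in brain none of 34. At 21 months 23 of 24 were lower than at 3 months in limb muscle, and 22 of 24 were higher in male than in female skin. In limb muscle of the parabiosis cohort 15 of 15 were lower in IA than in IY and 14 of 15 in HA than in HY. Over tissue means the locus members most like the summed cluster were mmu-miR-540-5p (Pearson r 0.989), mmu-miR-127-3p (0.987) and mmu-miR-337-5p (0.983), over 16 tissues. The small RNA reads of the host transcripts Rian and Mirg fell below a rho of -0.5 with age in limb muscle, skin, SCAT and GAT. Rian also did so in MAT (-0.554), lung (-0.545) and pancreas (-0.503), where 0 of 37, 0 of 30 and 1 of 32 members fell. Those of Meg3 did not in any of the 4 tissues, with a rho of 0.21 in SCAT and 0.06 in GAT. In limb muscle rho with age was -0.66 for Rian, -0.64 for Mirg and -0.18 for Meg3, and in skin -0.52, -0.71 and -0.06. In brain it was -0.18 for Rian, 0.11 for Mirg and 0.02 for Meg3, beside -0.16 for the summed cluster. These are fragments of long RNAs in small RNA libraries, summed over 64, 9 and 10 transcript entries that can share reads.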

How the data were processed

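The authors processed single-end small RNA reads with miRMaster, mapped them to miRBase and other databases with Bowtie allowing 1 mismatch, and left out libraries with too few aligned reads. The submitters' notes name the build mm10. The deposited values are a signal, reads per 1000000 mapped reads (rpmm). In 1 limb muscle library the miRNA values summed to 106.8% of mapped reads. Whole reads were recovered within 0.05 reads for 99.0% of miRNA values in aging and 98.8% in parabiosis, and gave depth and the edgeR alternative. Of the value columns, 2 of small intestine were not used because their names and their annotation disagree on age or number.

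miRNAs of at least 1 rpmm in 10% of a tissue's libraries were tested on log2(rpmm + 1), which understates changes at low levels, with limma 3.58.1 (eBayes, trend), with age or parabiosis group as a factor, and edgeR 4.0.16 as alternative. Adjustment was Benjamini-Hochberg over all miRNAs of a tissue and contrast, called under 0.05. Spearman rho used 100000 shuffles, two-sided. The p-values measure the spread between libraries, part of which may be technical. Members described one by one were the 5 highest and 3 lowest in brain, the strongest rho per tissue, members called in at least 4 tissues and up to 3 smallest adjusted p per contrast. Members named for missing a threshold were picked after their values were seen. Members and lists were chosen with earlier results of these data known. Sequences are from RefSeq (GRCm38.p6). Tests were checked on simulated data. Alternatives changed scaling, pseudocount, filter, libraries, plate, pool and pairs. HA and HY mice share pair numbers, but levels of partners went together in every pair only in liver.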

Additional observations from a re-analysis of the deposited data

Results flagged for a closer look

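Of 63 groups of 4 to 10 libraries, the summed level of 1 library stood apart from its group in 7, where chance gives about 1 in 20 groups. In the aging cohort 1 limb muscle library of 6 months held 910.1 rpmm (the next 537.3), 1 GAT library of 21 months 1778 (817), 1 brain library of 1 month 6840 (16080) and 1 brain library of 9 months 4193 (12760). Both brain libraries belong to the 12 with few miRNA reads. In the parabiosis cohort 1 HY kidney held 273.9 rpmm (the next 71), 1 HA limb muscle 420.9 (264.3) and 1 HY liver 169.7 (58.7).

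The slope with age differed from the mean of the other tissues, by limma, for members lower in limb muscle (37), skin (36), SCAT (22), GAT (2) and brain (2), and for members higher in BAT (30), spleen (8), brain (1), pancreas (1) and small intestine (1).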

How the results depend on the processing

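Of 252 alternatives for counts of calls, other than leaving out 1 library, 181 gave a count within 1.5 times the reported one, and no value changed direction. Of 752 alternatives for single members 624 kept their side of the threshold and 128 lost it. A mean of at least 10 rpmm, under which fewer members are tested, gave for falls with age 59 in all, 14 in limb muscle, 19 in skin, 11 in SCAT and 12 in GAT, for 21 against 3 months 17, 13, 3 (SCAT) and 1 (GAT), for 3 against 1 month 5 and 4, for parabiosis 32, for IA against IY 21 (limb muscle 8, GAT 9, heart 4), for HA against HY 11 (7 and 4) and for HA against IA 0. Without the 1-month libraries 64 falls with age were counted (skin 5, GAT 4). Plate means removed gave 11 in skin and 16 in SCAT, and means of title sets removed 15 in each. Without libraries closest to another tissue 74 members were lower at 21 months, 33 in SCAT, and 13 were higher in SCAT males (143 of 587 miRNAs). For SCAT at 21 months median-ratio scaling gave 15, males only 4, plate in the fit 14 and edgeR 28, and for GAT miRNA-read scaling gave 6, median-ratio 11 and plate 0. For 3 against 1 month miRNA-read scaling gave 50 (limb muscle 25), median-ratio 37 (22), a pseudocount of 0.1 gave 4 (2), males only 27 (24) and edgeR 3 (0). Members higher in SCAT males were 2 by miRNA-read scaling (18 of 587 miRNAs), 1 by median-ratio (22), 3 with a pseudocount of 0.1 (24) and 15 with plate (111). Members lower in GAT males were 17 by miRNA-read scaling (67 of 608 miRNAs) and 19 by median-ratio (74). Without 1 library at a time, counts at 21 against 3 months ran from 0 to 3 in GAT, 31 to 37 in limb muscle and 4 to 33 in SCAT, and at 3 against 1 month from 4 to 21 in limb muscle. The SCAT count was 5 without library 14 of 21 months, 5, 33 and 4 without libraries 05, 16 and 43 of 3 months. The GAT count was 0 without library 36 of 3 months or 54 of 21 months, and 1 without 49, 16 (3 months) or 28 (21 months). The limb muscle count at 3 against 1 month was 4 without library 13 or 47 and 21 without 21 of 1 month.

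In parabiosis, with partners of an isochronic pair averaged, calls went from 107 to 67 in all, IA against IY to 26 (GAT 0, heart 0) and HA against IA to 0. Without the 3-month IY mice IA against IY gave 41 (heart 0), and without the 4.5-month mice 9 in GAT, 1 in heart and 0 for HA against IA. In heart IA against IY gave 4 by miRNA-read scaling, 4 with no filter and 3 with pool in the fit. HA against IA gave 9 by miRNA-read scaling, 6 by median-ratio, 9 by edgeR and 1 with pool. The pair as a replicate block gave 37 calls for HA against HY in place of 40. The arm difference gave 0 at 30 rpmm, where the called hairpins were not tested. The cause of these changes was not tested. An unseen member is limited by depth, since 0 reads allow up to 3.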
